A study of Mus musculus with 6 samples.

Results

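The genes described here are 5 transcription factor genes of the extraembryonic endoderm, Gata4, Gata6, Sox17, Sox7 and Hnf4a, and Dab2, which encodes an endocytic adaptor of the same tissue. They were taken by gene symbol from the RNA-seq table, which held all 6 of them among its 24002 genes. R1, a mouse embryonic stem cell line, was formed into embryoid bodies in hanging drops and then kept with retinoic acid and sampled at day 6. The labels give the dose as 0.5 mM, but micromolar doses are usual in such cultures, so its unit is uncertain. Polyadenylated RNA of whole embryoid bodies was sequenced in 3 samples, called replicates 1 to 3, and with no other condition the values are levels, not changes from an untreated state. Separate cultures are not stated for the replicates, whose spread may therefore be technical. Accessible regions from 3 ATAC-seq samples were not used here, because gene positions in their genome build were not at hand.

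Extraembryonic endoderm is the first endoderm of the mouse embryo and forms the epithelia of the yolk sac. GATA6 and GATA4, zinc finger proteins that bind GATA sequences, stand at the head of its gene programme, and the SOXF proteins SOX17 and SOX7 act with them. HNF4A, a nuclear receptor, drives the genes for the apolipoproteins and other serum proteins that visceral endoderm secretes. DAB2 links receptors of the LDL receptor family to clathrin and is a long-used marker of this lineage. Visceral endoderm faces the embryo and absorbs nutrients, while parietal endoderm lays down a thick basement membrane. Embryonic stem cells are known to form both when they aggregate or when they meet retinoic acid. Each of the 6 genes also serves other tissues: Gata4 the heart, Sox17 and Sox7 the endothelium, Hnf4a the liver and gut, and Dab2 macrophages and kidney.

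Promoter sequence is shown for Hnf4a and Dab2, each with a pair of annotated start sites, from the RefSeq table of build GRCm38.p6. The 250 bases before each start are shown because the factors among the 6 genes have known recognition letters. Whether such letters bear on the values of these genes was not tested. Each is printed 5′ to 3′ on the + strand, and capitals mark every match, on either strand, to AGATAA for GATA factors, AACAAT for SOX factors, CAAAGT for HNF4 and GTTAAT for HNF1.
Hnf4a upstream start, chr2:163506607-163506856: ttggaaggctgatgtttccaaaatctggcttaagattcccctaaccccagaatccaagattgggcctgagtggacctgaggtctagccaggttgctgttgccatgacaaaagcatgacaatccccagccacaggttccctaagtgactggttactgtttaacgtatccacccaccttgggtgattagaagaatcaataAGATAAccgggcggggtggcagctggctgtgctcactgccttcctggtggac
Hnf4a downstream start, chr2:163546905-163547154: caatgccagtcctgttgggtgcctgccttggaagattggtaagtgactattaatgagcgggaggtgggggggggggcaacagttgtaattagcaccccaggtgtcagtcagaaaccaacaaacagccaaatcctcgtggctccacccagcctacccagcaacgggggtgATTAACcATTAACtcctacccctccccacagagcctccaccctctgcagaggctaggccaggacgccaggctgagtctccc
Dab2 upstream start, chr15:6299539-6299788: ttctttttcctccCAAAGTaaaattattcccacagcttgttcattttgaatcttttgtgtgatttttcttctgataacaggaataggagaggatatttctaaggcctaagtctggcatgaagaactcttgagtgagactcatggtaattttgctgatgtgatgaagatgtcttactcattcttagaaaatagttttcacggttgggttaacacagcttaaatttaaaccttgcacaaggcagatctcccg
Dab2 downstream start, chr15:6386498-6386747: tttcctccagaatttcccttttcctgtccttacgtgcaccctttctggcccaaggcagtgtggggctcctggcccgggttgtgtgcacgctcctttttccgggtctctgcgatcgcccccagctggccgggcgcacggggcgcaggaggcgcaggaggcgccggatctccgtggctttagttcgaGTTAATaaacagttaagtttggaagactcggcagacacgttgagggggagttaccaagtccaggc

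The window of the upstream Hnf4a start held the GATA letters once, from 52 to 47 bases before the start. The window of its downstream start held the HNF1 letters in the reverse sense at 81 to 76 and again at 74 to 69 bases before the start. In the window of the upstream Dab2 start the HNF4 letters stood at 237 to 232 bases, and in that of its downstream start the HNF1 letters stood at 65 to 60 bases. The SOX letters were found in none of these 4 windows, and no matches overlapped. Such letters are common: of 32851 promoter windows of the same length, 9.99% held the GATA letters, 9.42% the SOX letters, 12.6% the HNF4 letters and 6.43% the HNF1 letters. A match is a description of the sequence and not evidence of binding, and the FPKM table gives 1 value per gene and does not separate the start sites.

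Each of the 6 genes reached 1 FPKM in all replicates, where FPKM counts fragments per length of transcript and per mapped fragments and so lets genes be compared per length. Of all genes measured, 50.7% met this threshold, so 6 of 6 describes the members and is no test of them. The levels spanned a 7.76-fold range, with Gata4 and Dab2 at the top, Sox17 and Gata6 in the middle, and Sox7 and Hnf4a near the threshold. At 5 FPKM or more in every replicate were Gata4, Dab2, Sox17 and Gata6, 4 of the 6.

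Gata4, which acts in endoderm and heart, stood at 10.5, 15.6 and 16.7 FPKM in replicates 1, 2 and 3. Its mean was 14.3 ± 3.30 FPKM (SD, n = 3), above that of 80.9% of all genes. Replicate 1 was low and the others lay close to each other.

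Gata6, the factor known to start this programme in the embryo, stood at 5.39, 8.20 and 7.69 FPKM. Its mean of 7.09 ± 1.50 FPKM (SD, n = 3) lay above that of 68.6% of genes. Again replicate 1 was the low one, and replicates 2 and 3 exchanged their order relative to Gata4.

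Sox17, needed for endoderm of the embryo proper as well, stood at 5.47, 7.96 and 8.23 FPKM, with a mean of 7.22 ± 1.52 (SD, n = 3). Sox7, its close relative in the SOXF group, stood at 1.94, 2.59 and 2.63 FPKM, with a mean of 2.39 ± 0.387 (SD, n = 3). For both genes replicate 1 lay below the others, which were nearly equal.

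Hnf4a stood at 1.64, 2.15 and 1.74 FPKM, with a mean of 1.84 ± 0.269 (SD, n = 3), the lowest of the 6. Here replicate 1 was also the lowest, but replicate 3 lay close to it and replicate 2 stood apart above both. Hnf4aos, a gene antisense to Hnf4a by its name, was listed at 0 in every replicate, and since strand use is not given, reads of the pair could not be told apart.

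Dab2 stood at 11.3, 15.3 and 15.5 FPKM, with a mean of 14.0 ± 2.40 (SD, n = 3), above that of 80.6% of genes. Replicate 1 was low and replicates 2 and 3 did not differ by much.

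**Figure D1:**
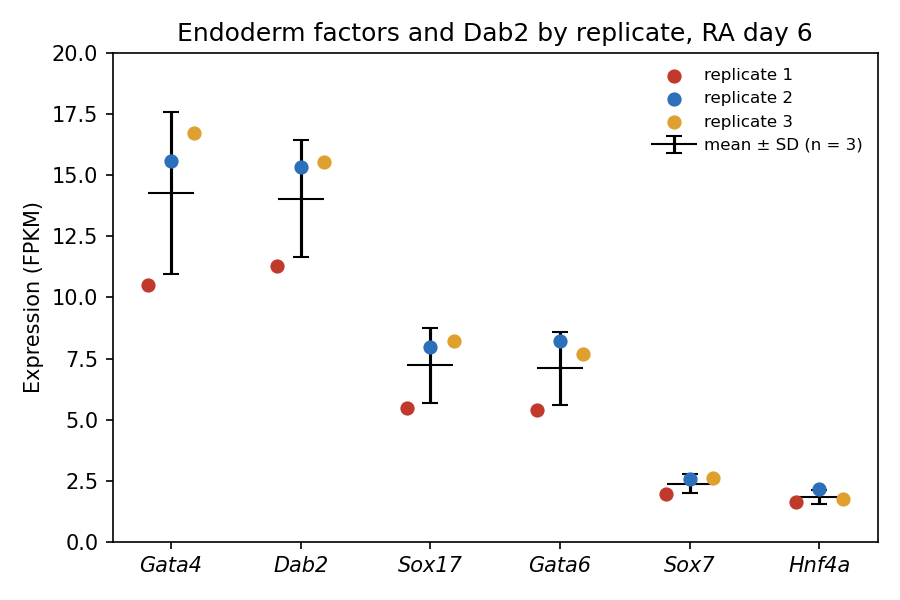
Expression in FPKM (vertical axis, from 0) of the 6 genes, ordered by mean, with a point for each replicate and a bar for the mean ± SD (n = 3). Replicate 1 is the lowest point of every gene, and its values run from 11.3 FPKM for Dab2 to 1.64 for Hnf4a.

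The order of neighbours in level was not always larger than their spread. Gata4 and Dab2 changed places between replicates, since Dab2 was the higher in replicate 1 and Gata4 in the others, and the ratio of Gata4 to Dab2 was 0.934, 1.02 and 1.08. Sox17 and Gata6 did so too, with a ratio of Gata6 to Sox17 of 0.984, 1.03 and 0.934. Sox7 stood above Hnf4a in every replicate, at ratios of 1.19, 1.21 and 1.52, although the range of the Sox7 values (1.94 to 2.63 FPKM) overlapped that of Hnf4a (1.64 to 2.15 FPKM). The 3 levels (Gata4 with Dab2, Sox17 with Gata6, Sox7 with Hnf4a) did not overlap: the lowest value of Dab2 and Gata4 was 10.5 and the highest of Sox17 and Gata6 was 8.23 FPKM.

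Within a replicate the ratios among the GATA and SOX genes varied less than their levels. Gata4 varied with a coefficient of variation of 23.1% and Sox17 with 21.1%, but the ratio of Gata4 to Sox17 was 1.92, 1.96 and 2.03, a mean of 1.97 ± 0.0554 (SD, n = 3) with a coefficient of variation of 2.81%. The ratio of Gata4 to Gata6 was 2.01 ± 0.146 (7.26%) and that of Sox17 to Sox7 was 3.01 ± 0.165 (5.50%). Hnf4a went with them less closely: the ratio of Gata4 to Hnf4a was 6.43, 7.26 and 9.64, with a coefficient of variation of 21.4%. These ratios rest on 3 libraries and are descriptions.

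Set beside their families, the members were the highest GATA, SOXF and HNF4 genes by mean, except that Gata3 stood between Gata4 and Gata6, and Dab2 was the lower of its pair. Among the GATA genes, Gata4 was followed by Gata3 at 7.76 ± 0.0816 FPKM (SD, n = 3), Gata6, and Gata2 at 6.90 ± 0.226. The values of Gata6 (5.39 to 8.20 FPKM) covered those of Gata2 and of Gata3, so Gata6 has no order in level against either, while Gata3 stood above Gata2 in every replicate. Gata2 and Gata3 are known from blood and from V2b interneurons of the spinal cord. Gata5, a further endoderm and heart gene, stood at 0.394, 0.481 and 0.537 FPKM, and Gata1, the erythroid factor, was listed at 0 in every replicate. Sox18, the third SOXF gene and a vascular factor, stood at 0.0710, 0.0370 and 0.0278 FPKM, far below Sox17 and Sox7. Hnf4g, the intestinal relative of Hnf4a, was listed at 0, 0 and 0.00970. Dab1, the neuronal relative of Dab2 in reelin signalling, was the higher of that pair at 23.0 ± 1.67 FPKM (SD, n = 3).

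**Figure D2:**
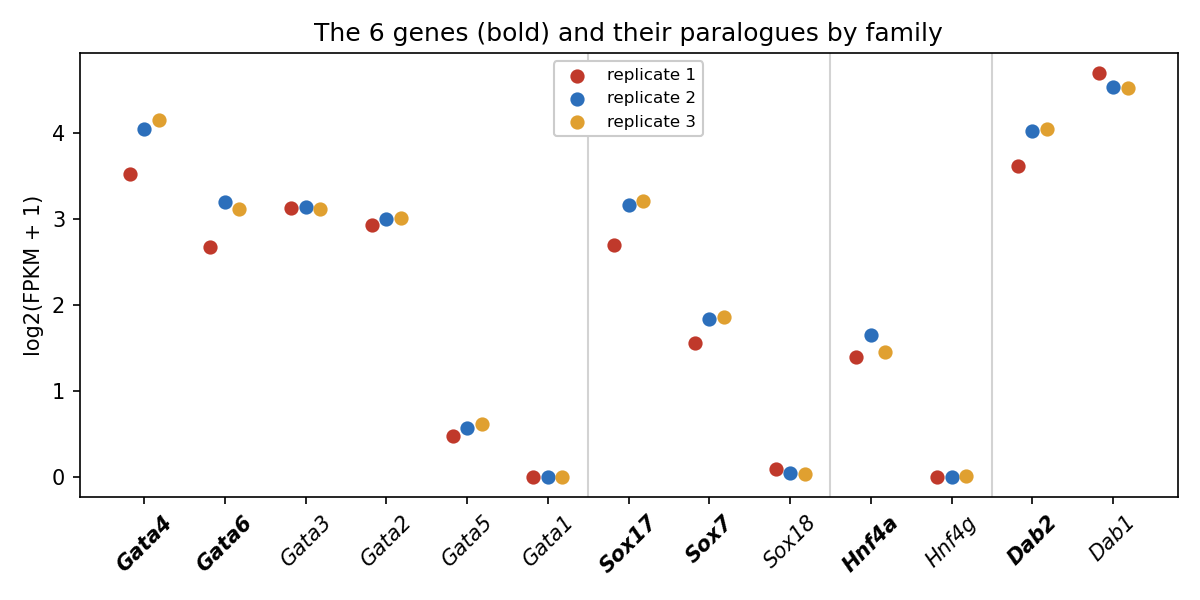
log2(FPKM + 1) (vertical axis) of the 6 genes, in bold, and 7 paralogues, grouped into the GATA, SOXF, HNF4 and DAB families, with a point for each replicate. The replicates of Gata4 and Gata6 are spread, while those of Gata3 and Gata2 lie together, and Dab1 is highest in replicate 1 where Dab2 is lowest.

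Every one of the 6 genes had its lowest value in replicate 1. The same held for 36.5% of the 12432 genes whose mean was 1 FPKM or more, since 1 of the replicates must be lowest, so the count alone says little and the sizes say more. In log2(FPKM + 1), where the added 1 understates the differences of low genes, replicate 1 minus the mean of replicates 2 and 3 was -0.57 for Gata4, -0.49 for Sox17, -0.49 for Gata6, -0.42 for Dab2, -0.30 for Sox7 and -0.15 for Hnf4a. The median was -0.45, against 0.00024 over the 12432 genes. That lower values of endoderm genes mark replicate 1 was known from an earlier look at these data, so this is a description and has no test, and single libraries cannot be set against each other with one.

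On the FPKM scale, replicate 1 held 0.651 of the mean of the other replicates for Gata4, 0.676 for Sox17, 0.678 for Gata6, 0.731 for Dab2, 0.744 for Sox7 and 0.844 for Hnf4a. Only 86 of the 12432 genes had a lower log2 difference than Gata4, a share of 0.692%. The share was 1.18% for Sox17, 1.24% for Gata6, 1.83% for Dab2 and 4.05% for Sox7. It was 11.8% for Hnf4a, whose difference depended on the library it was set against: -0.25 against replicate 2 alone and -0.05 against replicate 3 alone.

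The spread of the members was large for their level. Of 3225 genes with a mean within 1.5-fold of that of Gata4, the median coefficient of variation was 4.03%, and 99.4% of them varied less than Gata4. For Dab2, Gata6 and Sox17 these shares were 98.5%, 98.3% and 98.3%. They were 83.5% for Sox7 and 71.8% for Hnf4a, at a level where the median coefficient was 8.28% and 9.76%. Replicate 1 was not the shallowest library: by the steps between low values it was 1.56 times as deep as replicate 2 and 1.18 times as deep as replicate 3. In whole embryoid bodies, fewer cells of a type and less RNA per cell cannot be told apart.

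Of the paralogues averaging 1 FPKM or more, none shared the size of the lower value in replicate 1 that Gata4 and Dab2 had. Gata3 stood at 7.75, 7.84 and 7.68 FPKM and Gata2 at 6.65, 6.99 and 7.07, so that the ratio of Gata4 to Gata3 went from 1.36 in replicate 1 to 1.99 and 2.18 in the others. Dab1 stood at 24.9, 22.1 and 21.9 FPKM, highest in replicate 1, and the ratio of Dab2 to Dab1 was 0.452, 0.693 and 0.708. Of these 3 paralogues, Gata2 alone was lowest in replicate 1, by a difference of -0.07 in log2(FPKM + 1). Below 1 FPKM, Gata5 was lowest there too, at 0.774 of its mean FPKM in the other replicates.

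Other endoderm regulators stood beside the members. Of 15 listed, 7 reached 1 FPKM in all replicates. Of these 7, 5 had their lowest value in replicate 1, against 36.5% of the 12432 genes, with a median difference of -0.33. Foxa2, a forkhead factor of endoderm and floor plate, stood at 4.69, 7.33 and 7.38 FPKM. It was named after its values were seen, and it lay near Gata6 and Sox17 in pattern. Klf5, a Krüppel-like factor, stood at 5.01, 8.43 and 6.38 FPKM. The highest of the list, Sox4 (172 ± 5.97 FPKM; SD, n = 3) and Lhx1 (26.7 ± 1.89), are also neural genes and were not lowest in replicate 1. Prdm1 was the lowest of the list, at 0.0599, 0.0933 and 0.0312 FPKM.

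Genes of the signals that feed into this programme, and of cofactors, showed no such shift as lists. The FGF and ERK pathway induces primitive endoderm in the blastocyst, and Pdgfra encodes a receptor that marks this lineage. The list of 20 input genes also held retinoid receptor genes, Bmp4 and Nodal, and 17 of the 20 reached 1 FPKM in all replicates. Of these, replicate 1 was the lowest for 5 and the highest for 10, with a median difference of 0.06. Of the 12432 genes, 36.5% were lowest and 36.3% highest there. The adaptor gene Grb2 led the list at 72.9 ± 2.40 FPKM (SD, n = 3), before the kinase gene Mapk3 (63.3 ± 1.42), and the ligand gene Fgf4 stood at 0.0185 ± 0.00484. Pdgfra, named after its values were seen, was one of the 5 with their lowest value in replicate 1, at 7.79, 11.4 and 11.7 FPKM.

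Of 11 cofactor genes, 10 reached 1 FPKM in all replicates, 2 of them lower and 8 higher in replicate 1. Of the 12432 genes averaging 1 FPKM or more, 36.5% were lower and 36.3% higher there. Ctnnb1, which encodes beta-catenin, stood at 199 ± 3.53 FPKM (SD, n = 3), and the nuclear receptor genes Nr2f1 and Nr2f2 at 86.7 ± 2.88 and 35.6 ± 1.20. Nr0b2, a corepressor gene of nuclear receptors, was listed at 0.0372, 0 and 0. The FOG genes Zfpm1 and Zfpm2, whose products bind GATA factors and which were named after their values were seen, stood at 10.3 ± 0.889 and 5.33 ± 0.525 FPKM.

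The partners of DAB2 divided by role. Of 24 genes of clathrin, its adaptors and endocytic receptors, 23 reached 1 FPKM in all replicates. Of these, 11 were lower and 11 higher in replicate 1, with a median difference of -0.02. The shares over the 12432 genes were 36.5% lower and 36.3% higher. The clathrin light chain gene Clta (200 ± 6.63 FPKM; SD, n = 3) and the adaptor subunit gene Ap2m1 (168 ± 4.56), which every cell uses, led the list together with Grb2. Inpp5d was the lowest at 0.137, 0.153 and 0.162. The receptor genes of absorptive visceral endoderm were low: Lrp2, which encodes megalin, stood at 1.42, 1.81 and 1.78 FPKM, Cubn at 1.03, 1.33 and 1.18, and Amn at 1.14, 1.51 and 1.48. All 3 were lowest in replicate 1, as was Dab2.

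The members were set beside markers of the lineage and of some other tissues. The lists were chosen with earlier results of these data known, so this is a description and no test of the set's label. Of 22 parietal endoderm markers, 21 reached 1 FPKM in all replicates, and their summed level was 808, 1109 and 1106 FPKM in replicates 1, 2 and 3. Of 23 visceral endoderm markers, 15 did, with sums of 137, 177 and 175. The members summed to 36.2, 51.8 and 52.6 FPKM, so members and both marker lists were lowest in replicate 1. In replicate 1, Sparc and Col4a1, basement membrane genes, stood at 0.788 and 0.671 of their mean FPKM in replicates 2 and 3, and the collagen chaperone gene Serpinh1 stood at 0.786. Thbd was the lowest parietal marker at 0.637 ± 0.155 FPKM (SD, n = 3). The visceral markers Apoe, Rbp4 and Epcam stood at 0.787, 0.788 and 0.616 of theirs, whereas Cer1, a gene of anterior visceral endoderm, was listed at 0 in every replicate.

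By pattern, 20 of 21 parietal markers averaging 1 FPKM or more were lowest in replicate 1 (median difference -0.41), against 36.5% of all such genes. Plat (20.9, 21.9 and 20.7 FPKM) was the exception. Of 15 visceral markers, 11 were (median -0.23), while Afp, Spink3, Apoa2 and Fgb were not. Of 14 definitive endoderm markers, 7 are also on another list, and 7 of the 8 averaging that much were lowest in replicate 1 (median -0.46). Among these Cldn6 stood at 28.8, 42.7 and 43.0 FPKM and Nepn at 11.8, 16.4 and 15.2. Cxcr4, which neurons also use, was the exception at 48.7, 49.1 and 48.4. The 6 genes do not tell extraembryonic from definitive endoderm apart by themselves.

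**Figure D3:**
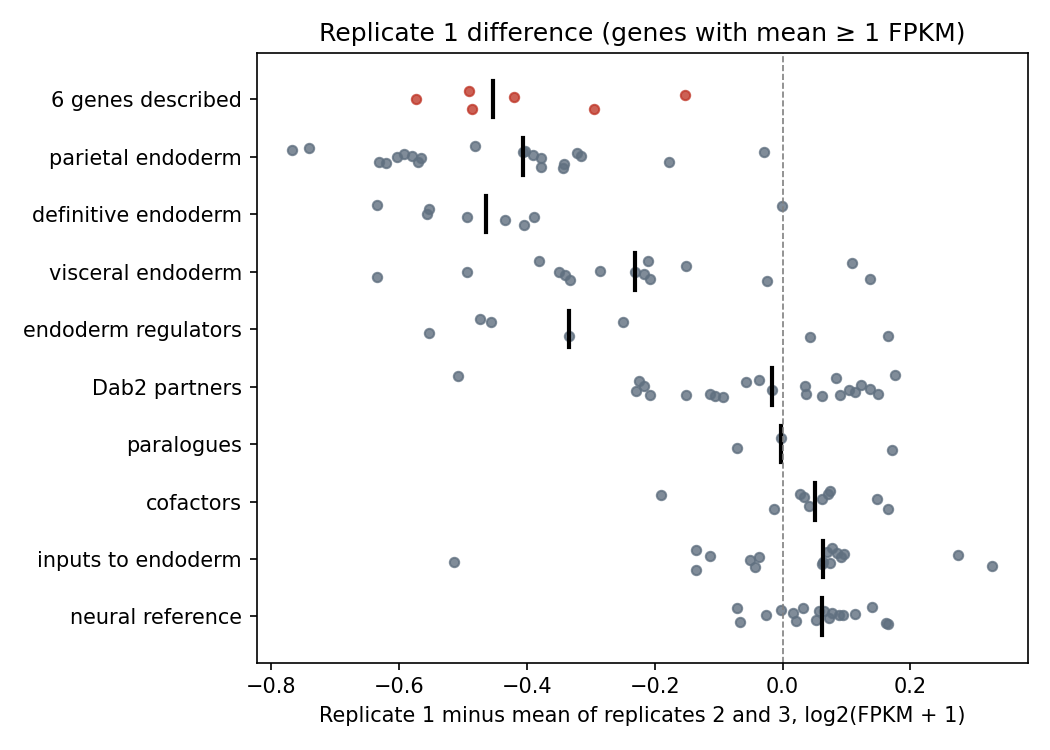
Replicate 1 minus the mean of replicates 2 and 3 in log2(FPKM + 1) (horizontal axis) for genes averaging 1 FPKM or more. Each list shown has a row, with a point for each gene and a black bar at the list median. The endothelial, liver and gut, macrophage and trophoblast lists are not shown. Their medians were -0.36, -0.73, -0.45 and -0.15, each over only 1 or 2 genes. No cardiac marker averaged that much. The medians of the 6 genes (-0.45) and of the endoderm lists lie left of 0, and those of cofactors, inputs and neural genes lie right of it. Single genes of several lists lie on the other side from their median.

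Markers of heart, endothelium, liver and gut, macrophages and trophoblast were mostly below 1 FPKM. Kidney, which also uses Dab2, had no list here. None of 16 cardiac markers reached 1 FPKM in every replicate, their sum was 3.84, 4.70 and 5.07 FPKM, and Myl2 was listed at 0. The highest were Ryr2, Myl7 and Tnni3. Of 15 endothelial markers, 2 did, Egfl7 (7.08, 8.34 and 8.51 FPKM) and Flt1 (3.47, 5.47 and 5.20), with sums of 13.0, 16.3 and 16.6 and Etv2 listed at 0. Both genes were lowest in replicate 1.

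Of 14 liver and gut markers, only Fabp1 reached the threshold, at 1.03, 2.43 and 2.30 FPKM, and Alb, Cdx1, Cyp7a1, Tat and Sult2a1 were listed at 0. The sum of that list was 2.66, 4.43 and 4.15. Of 9 macrophage markers in the table, only Cd68, a lysosomal protein gene, did (1.88, 3.08 and 2.81), with sums of 2.20, 3.84 and 3.51 and Aif1 listed at 0. Of 11 trophoblast markers, Esrrb and Plac1 did, with sums of 9.12, 10.2 and 9.74. These sums, too, were lowest in replicate 1, and their part in the values of the members was not tested.

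The listed neural genes had a higher summed FPKM than any endoderm list and as a list did not share the pattern. Sums of chosen lists do not measure the share of RNA from a cell type. All 18 of the neural reference list, among them Fabp7 (910 ± 8.47 FPKM; SD, n = 3), Tubb3 (645 ± 8.48) and Gap43 (607 ± 23.3), reached 1 FPKM in all replicates, and they summed to 3710, 3572 and 3549 FPKM. Of these, 12 were highest in replicate 1 and 2 were lowest there, with a median difference of 0.06. Over the 12432 genes, the shares were 36.3% highest and 36.5% lowest. Gata2 was the lowest of that list.

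The genes most like the members in pattern were sought among 8818 genes averaging 5 FPKM or more. Likeness was the distance between a gene's deviations from its own mean in log2(FPKM + 1) over the 3 replicates and the members' median deviations, which were -0.30, 0.14 and 0.13. Among the nearest 8 were Prss12 (distance 0.0146), Myh9 (0.0172), Spint2 (0.0195), Car2 (0.0259), Ppp1r14a (0.0310), Tmem51 (0.0322) and Tdh (0.0371), against a median of 0.370 over all 8818. Of the members themselves Dab2 lay nearest to the median, at 0.0282, then Sox17 (0.0564), Gata6 (0.0663), Sox7 (0.121) and Gata4 (0.131), and Hnf4a lay farthest at 0.272.

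Spint2, a gene for a membrane-bound protease inhibitor of epithelia, stood at 49.3, 67.2 and 67.7 FPKM. Myh9, which encodes non-muscle myosin heavy chain, stood at 13.8, 18.9 and 18.9, and Prss12, a serine protease gene, at 15.5, 21.4 and 21.3. With 3 libraries, many genes come near any profile, so the order within these 8 carries little. With a pseudocount of 0.1, an alternative chosen after seeing the data, 5 of the 8 were again among the nearest 8.

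Gata4 and Sox7 lie on chromosome 14 in the RefSeq annotation of GRCm38.p6, with 6 protein-coding genes of the table between them. Of these, 5 had at least 1 FPKM in every replicate. Tdh, which encodes threonine dehydrogenase and is one of the 8 genes nearest in pattern, stood at 6.06, 8.93 and 8.66 FPKM. Mtmr9 went the other way at 19.0, 17.0 and 16.8 FPKM, and Pinx1, next to Sox7, stood at 9.80, 9.68 and 9.92. Fam167a (1.37, 1.46 and 1.57) and Xkr6 (2.59, 2.99 and 2.92) were lowest in replicate 1 by small differences of -0.09 and -0.14 in log2(FPKM + 1), and Blk was listed at 0. A lower value in replicate 1 was thus not shared by every gene of this stretch.

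**Figure D4:**
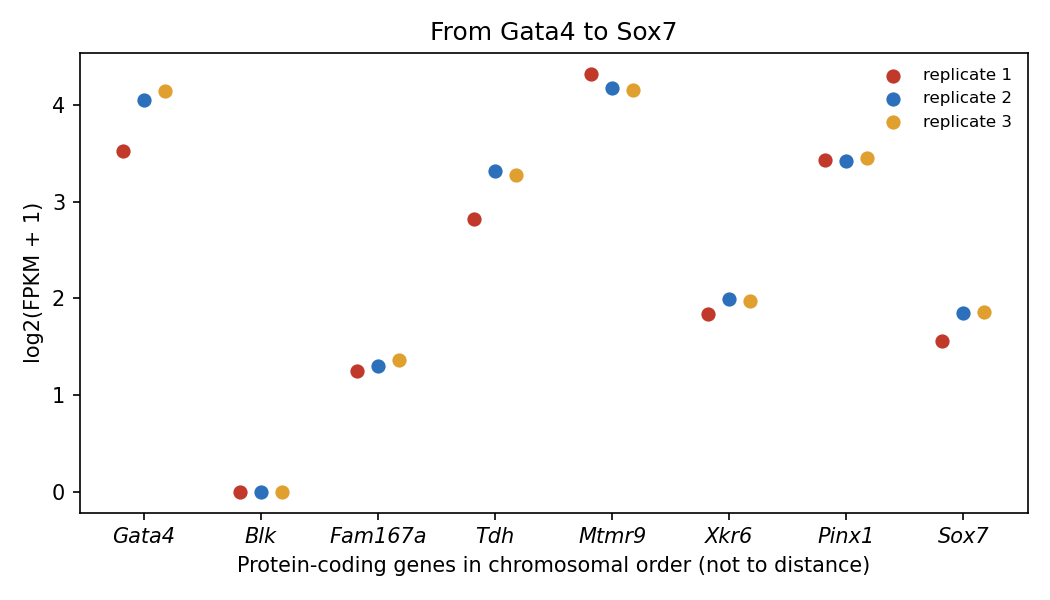
log2(FPKM + 1) (vertical axis) of Gata4, Sox7 and the 6 protein-coding genes between them in chromosomal order (horizontal axis, not to distance), with a point for each replicate. Replicate 1 lies clearly below the others for Gata4, Tdh and Sox7, above them for Mtmr9 and level with them for Pinx1.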

How the data were processed

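RNA-seq libraries of 3 samples were made with a commercial Illumina kit, per the labels' protocols, and grouped and numbered by their titles. The authors deposited a table of FPKM values, read as such because the submitters' processing notes name Bowtie, Cufflinks and mm9. Its header names no unit. Versions, strand use and scaling between libraries were not given in the sources used here. Read totals are unknown, and FPKM summed to between 477760 and 524717 per library. Relative depth was taken as the most common ratio of values between 0.001 and 0.1 FPKM (tolerance 0.004, natural log). An exact 0 can be a failed estimate.

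From these values were computed means, SDs, ranks, ratios and differences in log2(FPKM + 1), with Python 3.11.15, numpy 2.4.6 and pandas 2.3.3. With 1 condition no test was made. The likeness and depth steps were tested on simulated data. The members and 14 further gene lists were chosen with earlier results of these data known. Genes named are the members, their paralogues, from each list the 3 highest, the lowest and those that define a cell type, and the 8 most like the members. The values of some of these genes are not reported here. Others were named after their values were seen, and neighbours by gene order. Of 203 list genes, 1 symbol was not in the table. Alternatives were upper quartile scaling, a pseudocount of 0.1, thresholds of 0.5 and 5 FPKM, no filter and leaving out each replicate. Promoter windows were taken from a RefSeq table and are printed for 2 of the 6 genes. Those of the others were absent from it or are not reported here.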

Additional observations from a re-analysis of the deposited data

How the results depend on the processing

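Upper quartile scaling, a pseudocount of 0.1, the other thresholds and filters and the removal of each replicate gave 78 recomputed values. No level, difference or ratio of the 6 genes changed sign or moved by more than the SD of the same 3 replicates. No count moved by more than 1.5-fold. Removing 1 of 3 replicates cannot exceed that SD or lower a count of members, so those values do not measure stability. At 5 FPKM the count of members fell from 6 to 4, which is exactly at the 1.5-fold limit. The differences of replicate 1 ranged from -0.61 to -0.22 with the smaller pseudocount and from -0.56 to -0.14 with scaling, which put the median of all genes at 0.02. That of Hnf4a is the least certain, since it shrank to -0.05 without replicate 2. Without a filter on low values 26.4% of all genes were lowest in replicate 1. No paired analysis was possible because the RNA-seq and ATAC-seq samples that share replicate numbers measure different things and are not compared. Windows around the genes in the accessible regions were not run. Absolute depth is unknown, so counting error at low FPKM cannot be given.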

Other observations

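The nearest protein-coding genes of the table, 2 on each side of each of the 6 genes in the RefSeq order, gave 24 neighbours, 16 of them with at least 1 FPKM in every replicate. Of these 16, 6 were lowest in replicate 1, a share near the 36.5% of all genes averaging 1 FPKM or more. They were Neil2, Fam167a, Rbbp8, Lypla1, Xkr6 and Serinc3. The median difference of the 16 was -0.02 in log2(FPKM + 1). Mib1, beside Gata6 and known for its role in Notch ligand uptake, stood at 12.5, 10.9 and 10.5 FPKM, highest in replicate 1 where Gata6 was lowest. Mrpl15, next to Sox17 and encoding a mitochondrial ribosomal protein, stood at 6.79, 6.40 and 7.32, and Ttpal, next to Hnf4a, at 7.20, 6.69 and 6.88. The genes next to Dab2 were below 1 FPKM: Ptger4, a prostaglandin receptor gene, stood at 0.626, 0.593 and 0.329 FPKM and C9, a complement gene, at 0.0213, 0 and 0.0500. Beyond Ptger4, Ttc33 stood at 11.8, 11.4 and 12.8 FPKM. These neighbours were named after their values were seen.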
